A study of Homo sapiens with 4 samples.

Results

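The genes examined were the sensors and effectors of the unfolded protein response, 10 of the 56655 gene symbols counted in each library. They were taken by name: the sensor genes ERN1, EIF2AK3 and ATF6 with the ATF6 paralog ATF6B, the transcription factor genes XBP1, ATF4 and DDIT3, and the direct regulators HSPA5, MBTPS1 and MBTPS2. All 10 had counts in every library and passed the filter on low counts. RNA-seq was done on OVCAR5, an established cell line from ascites that the labels call high-grade serous ovarian cancer, in cells transduced with a nontargeting hairpin (shCtrl, n = 2 libraries) or a hairpin directed at the forkhead transcription factor gene FOXK2 (shFOXK2, n = 2 libraries). Both groups carried a lentiviral hairpin and were kept as puromycin-selected stable lines. A single FOXK2 hairpin, named shFOXK2-2 in the study, was used for RNA-seq, so an effect of that hairpin apart from FOXK2 cannot be told apart from an effect of FOXK2. The series text calls the 2 libraries of each group biological duplicates.

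The unfolded protein response is the set of signals that a cell sends from the endoplasmic reticulum (ER) when proteins there fail to fold. IRE1α (encoded by ERN1), PERK (EIF2AK3) and ATF6 each span the ER membrane and are held inactive by the chaperone BiP, also called GRP78 (HSPA5). Active IRE1α cuts a short intron out of the XBP1 transcript, so that the spliced form encodes a strong transcription factor. Active PERK phosphorylates the translation factor eIF2α, which lowers protein synthesis while the ATF4 transcript is translated more, and ATF4 in turn acts on the gene for CHOP (DDIT3). ATF6 moves to the Golgi, where the site-1 and site-2 proteases (MBTPS1 and MBTPS2) release its DNA-binding part. Cancer cells with high rates of protein synthesis are known to depend on this response to tolerate stress.

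Several of these steps rest on short sequences. The XBP1 stretch below is coding sequence on chr22:28796116-28796165 of hg38, minus strand, with an annotated 26-base intron in capitals. This is the annotated form of the intron that IRE1α removes. The bases at its start recur right after its end, so the annotation does not fix the exact cut. The stretch is shown because reads with and without these 26 bases fall in the same gene count. The XBP1 values therefore do not separate spliced from unspliced transcript.
XBP1 intron: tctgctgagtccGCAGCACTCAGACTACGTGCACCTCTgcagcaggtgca
The ER stress response element, which ATF6 and XBP1 bind together with the CCAAT-binding factor NF-Y, has the letters CCAAT, then any 9 bases, then CCACG. It was searched on both strands in the RefSeq promoter windows of build GRCh38.p14, each from 250 bases before to 50 bases after a transcript start. All 10 members matched by symbol, with 13 windows among them. The element was present in the windows of 2 members, HSPA5 and XBP1, against 0.0769% of all 35116 windows. The bases before the start are printed for these 2 members with the element in capitals, at chr9:125241344-125241463 (minus strand) and chr22:28800570-28800689 (minus strand).
HSPA5 promoter: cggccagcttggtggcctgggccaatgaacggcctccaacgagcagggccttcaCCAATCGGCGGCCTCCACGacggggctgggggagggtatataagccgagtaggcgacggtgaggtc
XBP1 promoter: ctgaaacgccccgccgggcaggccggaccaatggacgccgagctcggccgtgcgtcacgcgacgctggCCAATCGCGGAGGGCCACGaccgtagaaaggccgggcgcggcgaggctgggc
The element lay from 66 to 48 bases before the start in HSPA5 and from 52 to 34 bases before it in XBP1. The letters TGTTTAC, a core that forkhead factors bind, were in 0 of the 13 member windows and in 3.42% of all windows. TGACGTGG, the core bound by XBP1 and ATF6, was likewise in 0 member windows and in 0.729% of all, and ATTGCATCA, the composite site of C/EBP and ATF4, was in 0 and in 0.236%. At these shares, 0 matches in 13 windows would be the usual outcome for any genes, so these counts do not set the members apart. Sites outside the windows were not searched, and the study reported FOXK2 binding in an intron of ERN1. A match is a description of letters in a window and not a binding site, and FOXK2 binding was not analysed here.

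Library totals ran from 14284005 to 21950873 counts, so 3 counts corresponded to 0.137 to 0.210 CPM, the count of a gene per 1000000 counts of its library. All later levels are CPM over the counts of tested genes, with library sizes adjusted by the TMM method, a trimmed mean of log ratios. Fold changes are those of the edgeR quasi-likelihood fit. FOXK2 itself had 80.5 to 93.4 CPM in shCtrl and 59.6 to 76.3 CPM in shFOXK2, both shFOXK2 libraries being the lower, but the difference was not past the threshold (log2 fold change −0.36, SE 0.25, adjusted p = 0.257). The study itself measured lower FOXK2 mRNA by qRT-PCR, and lower protein by Western blot, in OVCAR5 cells with its FOXK2 hairpins. The paralog FOXK1 fell (log2 fold change −1.16, SE 0.23, adjusted p = 0.00111). All 6 epithelial markers examined were above 1 CPM in some library, with a summed level of 4075 to 5444 CPM in shCtrl and 4082 to 5298 CPM in shFOXK2, most of it from keratins. CDH1, the gene for E-cadherin, was the 1 epithelial marker called, and it fell to 6.07% of its shCtrl mean (log2 fold change −4.02, SE 0.37, adjusted p = 5.12e-06). Of 4 serous ovarian markers, WT1 had at most 2 counts in any library, and the summed level was 33.2 to 37.0 CPM in shCtrl and 15.8 to 18.8 CPM in shFOXK2. MUC16 and PAX8 fell, while MSLN rose (log2 fold change 1.10, adjusted p = 0.0151). Summed levels of markers of other cell types were low beside the epithelial sum. The fibroblast list summed to 18.9 to 20.4 CPM against 13.5 to 16.4, the leukocyte list to 18.1 to 22.6 against 9.14 to 9.39, and the endothelial list to 7.72 to 10.6 against 0.633 to 2.03. Of these 14 markers only 2 of the fibroblast, 1 of the leukocyte and 2 of the endothelial list were tested. Of the tested markers 4 fell, PDGFRB, CD14, PECAM1 and CDH5. COL1A1, the bulk of the fibroblast sum, had a log2 fold change of 0.03 (adjusted p = 0.951). CD14 had 17.4 and 22.3 CPM in shCtrl, and CDH5 had 76 and 33 counts in shCtrl and 0 in each shFOXK2 library. COL1A2, DCN, PTPRC, CD68, CD3E and KDR had at most 3 counts in any library. The part of these differences in the results was not tested.

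Of the 10 members, 5 fell in shFOXK2 (ERN1, MBTPS1, HSPA5, XBP1 and EIF2AK3), 0 rose, and 5 did not pass the threshold of an adjusted p under 0.05. Those that fell were at 24.0% to 32.7% of their shCtrl mean. The comparison separated many genes, since 22.7% of the 16417 genes tested were called lower and 25.7% higher. Calls with a log2 fold change below −1, as for these 5 members, made up 16.7% of tested genes. At an unadjusted p under 0.05, and likewise by DESeq2, 6 members were lower, ATF6B being the addition, and 0 were higher. The median log2 fold change of the 10 members was −1.13, against 0.04 over all tested genes. For 8 of 10 members each shFOXK2 value was below each shCtrl value, and the share of all tested genes with that order was 36.2%. In RNA from whole cultures, fewer cells that express a gene and less RNA per cell cannot be told apart. As above, levels are TMM-scaled CPM and fold changes are those of the edgeR quasi-likelihood fit.

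**Figure D1:**
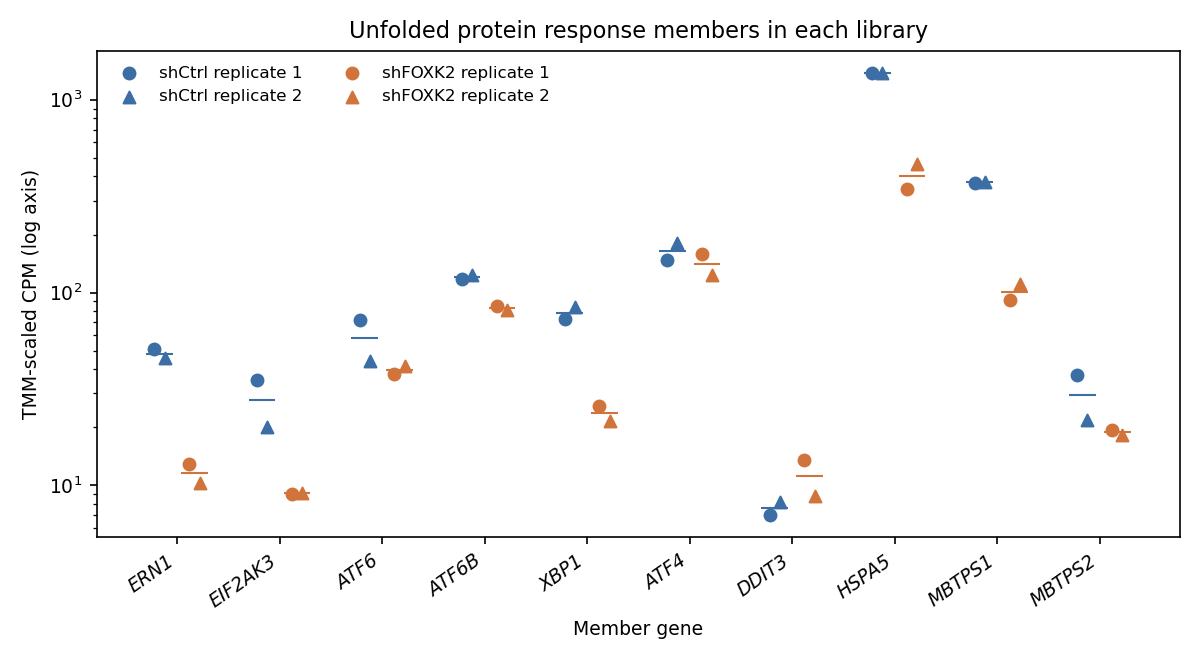
TMM-scaled CPM of the 10 members on a log axis, with shCtrl in blue, shFOXK2 in orange, replicate 1 as a circle, replicate 2 as a triangle and each group mean as a horizontal line. HSPA5 and MBTPS1 show the tightest shCtrl values and a wide gap to shFOXK2, while the groups of ATF4 overlap.

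Among the sensors, ERN1 was measured at 50.9 and 45.5 CPM in the shCtrl libraries and at 12.9 and 10.3 CPM in the shFOXK2 libraries. The groups were far apart and the replicates of each group close together. ERN1 fell by 2.06 on the log2 scale (SE 0.27, adjusted p = 6.81e-05), further than all but 4.95% of tested genes. This was the lowest fold change of the 10 members, and it stayed between −2.25 and −1.73 over 13 alternative settings and 4 fits that each left out 1 library, all of which passed the threshold.

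EIF2AK3, the PERK gene (chromosome 2 of hg38, 88556741 to 88691518, minus strand), was at 35.4 and 20.2 CPM in shCtrl and at 8.998 and 9.17 CPM in shFOXK2. The shFOXK2 libraries were nearly equal, whereas the shCtrl libraries differed widely, yet the groups did not overlap. EIF2AK3 fell by 1.61 on the log2 scale (SE 0.32, adjusted p = 0.00115). The value was −1.19 without shCtrl replicate 1 and −2.04 without shCtrl replicate 2, past the threshold in each case.

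ATF6 (chromosome 1, 161766298 to 161977574, plus strand) was at 72.0 and 44.4 CPM in shCtrl and at 37.6 and 41.6 CPM in shFOXK2. The second shCtrl library lay just above the shFOXK2 values and the first far above them. With a log2 fold change of −0.56 (SE 0.28), ATF6 did not pass the threshold (adjusted p = 0.117). Which shCtrl library was kept decided the value, which was −0.20 (adjusted p = 0.612) without shCtrl replicate 1 and −0.94 (adjusted p = 0.00673) without shCtrl replicate 2. Over the alternatives that left out no library and asked for no minimum change, the adjusted p ran from 0.000999 to 0.2135. The lowest came from offsets on base composition, under which ATF6 was called lower. Its log2 fold change was then −0.83 for GC content (adjusted p = 0.00494) and −0.76 for A content (adjusted p = 0.00790). It was −0.83 for GC content with the replicate number as a block.

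ATF6B encodes a paralog of ATF6 that is also cleaved under ER stress and is held to be a weaker activator (chromosome 6, 32115264 to 32128253, minus strand). It was at 118 and 124 CPM in shCtrl and at 85.3 and 80.9 CPM in shFOXK2. Replicates agreed closely and the groups were apart, but the difference was small and not past the threshold (log2 fold change −0.54, SE 0.23, adjusted p = 0.0708). Under offsets on base composition it shrank to −0.21 for GC content and −0.19 for A content.

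The transcription factors did not move together. XBP1 stood at 72.9 and 84.3 CPM in shCtrl and at 25.7 and 21.6 CPM in shFOXK2. The groups were well separated, and XBP1 fell by 1.73 on the log2 scale (SE 0.26, adjusted p = 0.000154). XBP1 had no exon overlap with another gene in GENCODE v44, and its processed copy XBP1P1 had at most 6 counts in any library.

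ATF4 (chromosome 22, 39519695 to 39522683, plus strand) was at 147 and 180 CPM in shCtrl and at 158 and 123 CPM in shFOXK2. The groups overlapped. Its log2 fold change was −0.22 (SE 0.24, adjusted p = 0.476), and it turned positive, at 0.12 and 0.11, under the offsets on GC and A content. Since ATF4 is largely controlled at translation, its transcript level does not report the amount of the protein.

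DDIT3, the gene for the death-promoting factor CHOP (chromosome 12, 57516588 to 57521737, minus strand), was at 7.04 and 8.16 CPM in shCtrl and at 13.6 and 8.79 CPM in shFOXK2. It was the only member with both shFOXK2 libraries above both shCtrl libraries, a pattern shared by 39.2% of all tested genes. Its log2 fold change of 0.55 (SE 0.33) did not pass the threshold (adjusted p = 0.175). It rested mainly on shFOXK2 replicate 1, since it was 0.19 (adjusted p = 0.719) without that library and 0.81 (adjusted p = 0.0744) without shFOXK2 replicate 2. Under the GC offset it was called higher, at 0.85 (adjusted p = 0.0272).

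Of the exon bases of DDIT3, 27.2% overlap the methionyl-tRNA synthetase gene MARS on the opposite strand. MARS had 153 and 182 CPM in shCtrl and 108 and 82.7 CPM in shFOXK2. The strand setting of the counting was not given in the sources used here, so the DDIT3 counts may include or lack reads from that overlap, and this was not tested. For the remaining members the largest exon overlap was 12.2%, of MBTPS2 with YY2, which had 11 to 60 counts per library.

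Of the regulators, HSPA5 (chromosome 9, 125234853 to 125241382, minus strand) was the most abundant member, at 1378 and 1376 CPM in shCtrl and 345 and 462 CPM in shFOXK2. The shCtrl libraries were nearly identical and the shFOXK2 libraries differed from each other by far less than from the controls. HSPA5 fell by 1.77 on the log2 scale (SE 0.25, adjusted p = 0.000107).

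MBTPS1, which encodes the site-1 protease (chromosome 16, 84053761 to 84116942, minus strand), had 371 and 376 CPM in shCtrl and 92.0 and 110.3 CPM in shFOXK2. The groups were far apart, and the shCtrl libraries differed little from each other. It fell by 1.88 on the log2 scale (SE 0.24), with the lowest adjusted p of the members, 4.34e-05.

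MBTPS2, the gene for the site-2 protease that cuts after the site-1 protease (chromosome X, 21839617 to 21885423, plus strand), had 37.3 and 21.8 CPM in shCtrl and 19.5 and 18.3 CPM in shFOXK2. As for ATF6, only the first shCtrl library lay far above the others. Its log2 fold change was −0.65 (SE 0.30, adjusted p = 0.0919), −0.24 (adjusted p = 0.575) without shCtrl replicate 1 and −1.05 (adjusted p = 0.00455) without shCtrl replicate 2. It was −1.06 (adjusted p = 0.00247) under the GC offset.

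**Figure D2:**
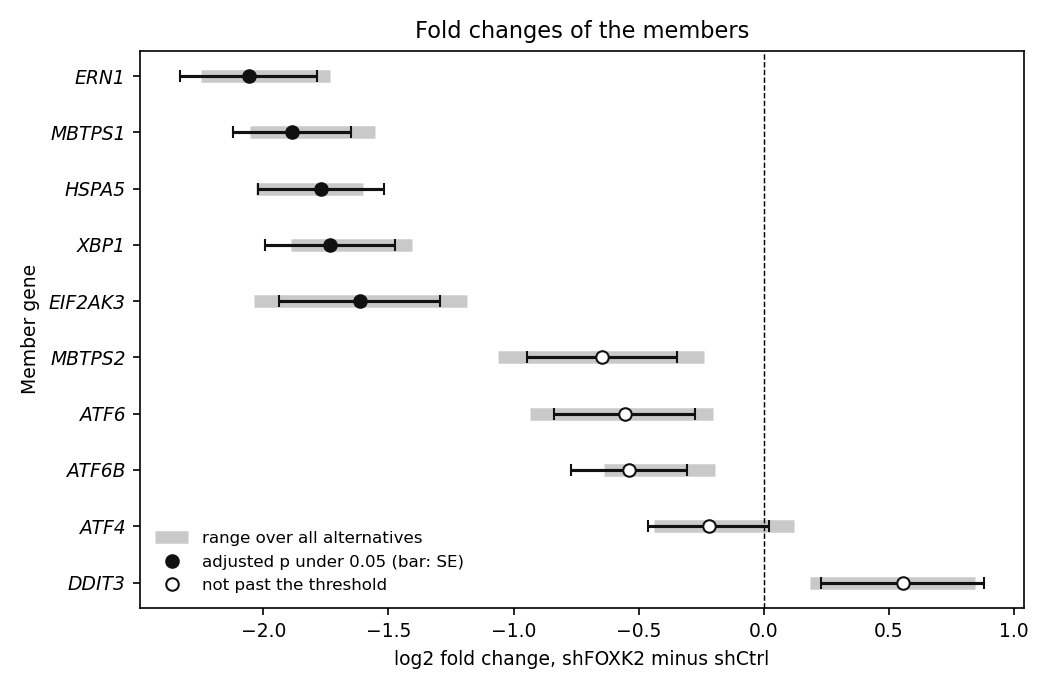
Log2 fold change of each member, shFOXK2 minus shCtrl, with bars of 1 SE (n = 2 libraries per group), filled circles for an adjusted p under 0.05 and grey bands for the range over all alternative settings and left-out libraries. The 5 members that fell lie from −2.06 to −1.61 with no band reaching 0, and the band of ATF4 alone crosses 0.

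Per kilobase of the canonical transcript, the level of the members in shCtrl ran from 351 ± 0.404 CPM per kilobase for HSPA5 to 6.11 ± 0.482 for ERN1 (SD, n = 2). Below HSPA5 came ATF4 at 115 ± 16.6, MBTPS1 at 85.3 ± 0.725, ATF6B at 45.9 ± 1.60 and XBP1 at 43.9 ± 4.51 CPM per kilobase, the last pair differing by less than their spread. DDIT3, ATF6, MBTPS2, EIF2AK3 and ERN1 followed between 8.42 and 6.11, and neighbours among these 5 did not differ beyond their spread. Transcripts of the sensors ERN1, EIF2AK3 and ATF6 were therefore scarce beside that of the chaperone that binds their proteins.

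In shFOXK2 the order changed. HSPA5 at 102.9 ± 21.1 and ATF4 at 99.1 ± 17.5 CPM per kilobase were no longer apart beyond their spread. ATF6B, at 31.6 ± 1.17, stood above MBTPS1, at 23.1 ± 2.96. XBP1, at 13.2 ± 1.63, and DDIT3, at 12.4 ± 3.74, lay within their spread of each other, and ERN1 stayed lowest at 1.47 ± 0.227.

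Ratios of counts between members within a library do not depend on how libraries are scaled. With 2 libraries against 2, the smallest 2-sided p of an exact permutation test is 0.333, so they are given without a test. DDIT3 over ATF4 was 0.0478 and 0.0452 in shCtrl and 0.0858 and 0.0715 in shFOXK2, higher in both shFOXK2 libraries. XBP1 over ATF4 was 0.496 and 0.467 in shCtrl against 0.163 and 0.176 in shFOXK2, and HSPA5 over ATF4 was 9.36 and 7.62 against 2.18 and 3.76. XBP1 and HSPA5 thus stood lower relative to ATF4 in both shFOXK2 libraries, whichever scaling is chosen.

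Among the members that fell, HSPA5 over XBP1 was 18.9 and 16.3 in shCtrl and 13.4 and 21.4 in shFOXK2, so the groups overlapped, as did HSPA5 over ERN1 at 27.1 and 30.2 against 26.8 and 44.8. XBP1 over ERN1 was 1.43 and 1.85 in shCtrl and 2.00 and 2.09 in shFOXK2, higher in both shFOXK2 libraries. Among the sensors, ATF6 over EIF2AK3 was 2.03 and 2.20 in shCtrl and 4.18 and 4.53 in shFOXK2, while ATF6 over ATF6B overlapped between groups. ERN1 over EIF2AK3 was 1.44 and 2.26 in shCtrl and 1.43 and 1.13 in shFOXK2, nearly equal in the first library of each group. The protease ratio, MBTPS1 over MBTPS2, was 9.95 and 17.2 in shCtrl and 4.72 and 6.01 in shFOXK2.

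**Figure D3:**
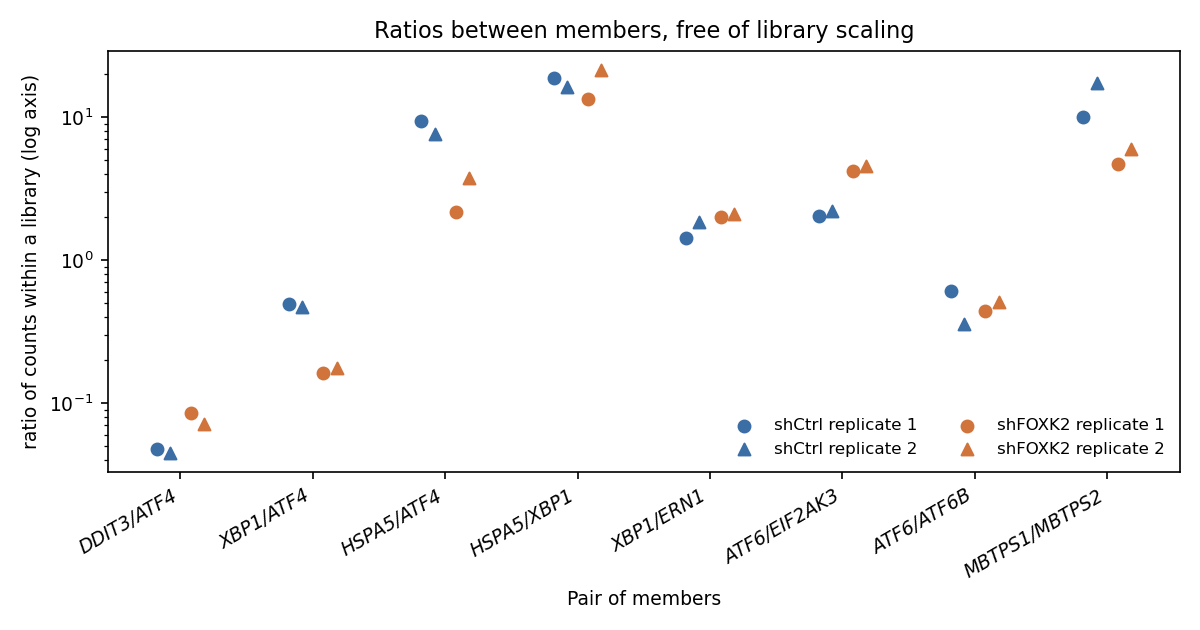
Ratio of the counts of pairs of members within each library on a log axis, with shCtrl in blue, shFOXK2 in orange, replicate 1 as a circle and replicate 2 as a triangle. The groups are apart for XBP1, HSPA5 and DDIT3 over ATF4, XBP1 over ERN1, ATF6 over EIF2AK3 and MBTPS1 over MBTPS2. They overlap for HSPA5 over XBP1 and ATF6 over ATF6B.

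The shCtrl replicates disagreed for the same 3 members. The log2 ratio of shCtrl replicate 1 over replicate 2 was 0.81 for EIF2AK3, 0.77 for MBTPS2 and 0.70 for ATF6, and between −0.29 and 0.16 for the other 7. These 3 had the lowest GC contents of the 10 canonical transcripts, at 44.1%, 39.9% and 41.2%, the others having 46.1% to 57.6%. Across the 10 members, Spearman's rho of that ratio with GC content was −0.71, and across 14382 tested genes with a composition value it was −0.67. Between the shFOXK2 replicates rho was 0.28 over the members and 0.23 over all. The points share the same 2 libraries, and genes are not replicates. The fold change itself had a rho with GC content of 0.10 over the members and −0.27 over all genes. With A content, rho of the shCtrl ratio was 0.26 over the members and 0.64 over all genes. For the fold change, rho with A content was 0.38 and 0.33. The calls of ERN1, XBP1, HSPA5, MBTPS1 and EIF2AK3 held under both offsets on composition.

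**Figure D4:**
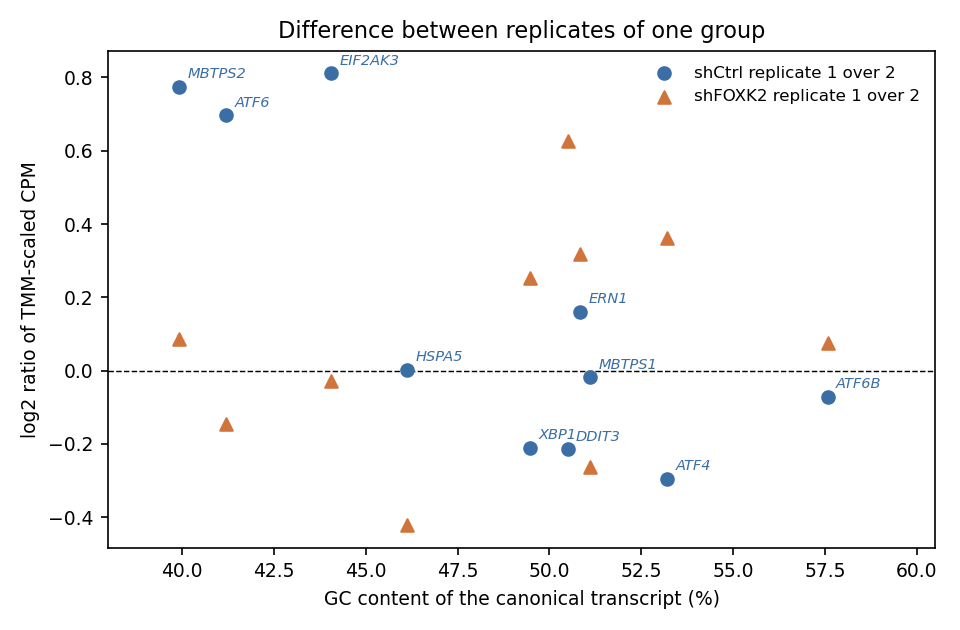
Log2 ratio of TMM-scaled CPM between the 2 replicates of a group for each member, against the GC content in percent of its canonical transcript, with shCtrl as blue circles and shFOXK2 as orange triangles. MBTPS2, ATF6 and EIF2AK3 stand apart at low GC content with shCtrl ratios from 0.70 to 0.81.

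The genes whose 4 values, relative to their shCtrl mean, lay closest to those of a member were searched among the 10153 tested genes whose mean log2 CPM was 3 or more. For ERN1 these were HSPG2 (log2 fold change −2.03), TCP11L1 (−2.14) and RALGAPA2 (−2.10), at Euclidean distances of 0.04 to 0.10 in log2 units over 4 libraries. For HSPA5 they were PIM1 (−1.70), UHRF1BP1 (−1.81) and MR1 (−1.75), at 0.10 to 0.11. For DDIT3 they were C11orf84 (0.54), TBC1D10B (0.57) and COL6A1 (0.58), at 0.03 to 0.05, and none of these 3 passed the threshold. All these genes were picked on the same 4 libraries, so fold changes near those of the member follow from the choice.

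Other genes of the pathway were described in 9 lists, which hold 71 genes outside the members, 69 of which were tested. Of these, 31 fell and 9 rose, and 29 did not pass, with a median log2 fold change of −0.58. The 9 rises became 5 without shCtrl replicate 2 or without shFOXK2 replicate 2. Each list's counts can be set beside the 22.7% called lower and 25.7% called higher over all tested genes. The lists share genes, so their counts are not separate. HYOU1, DNAJB9, DNAJB11, DNAJC3, SDF2L1, MANF, TRIB3, PPP1R15A and ATF3 recur between lists, and the members DDIT3, HSPA5 and XBP1 stand in target lists.

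Genes that share the kinase roles of IRE1α and PERK went different ways. Of the 3 tested, 1 fell, 1 rose and 1 did not pass, with a median log2 fold change of 0.15. EIF2AK1, the heme-regulated eIF2α kinase, fell from 395 and 383 CPM to 199.9 and 195 CPM (log2 fold change −0.98, SE 0.22, adjusted p = 0.00291). EIF2AK4, the amino acid-sensing kinase GCN2, rose from 93.3 and 90.6 CPM to 145 and 176 CPM (0.80, SE 0.23, adjusted p = 0.0121), a call lost without shCtrl replicate 2 (adjusted p = 0.0509) or shFOXK2 replicate 2 (adjusted p = 0.125). EIF2AK2, the double-stranded RNA kinase PKR, had a log2 fold change of 0.15 (adjusted p = 0.724) that was 0.74 (adjusted p = 0.0411) without shCtrl replicate 1 and −0.37 (adjusted p = 0.321) without shCtrl replicate 2. ERN2, the epithelial paralog of ERN1, had 0 to 6 counts and was not tested.

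In the list of the XBP1 ligation complex and IRE1α partners, 2 of 9 genes fell, 3 rose and 4 did not pass, with a median log2 fold change of 0.23. RTCB, the ligase that joins the XBP1 exons, fell from 55.8 and 69.7 CPM to 39.8 and 36.0 CPM (−0.73, SE 0.25, adjusted p = 0.0300). That call was lost under the offsets on GC and A content (adjusted p = 0.0563 and 0.0870) and in 3 of the 4 fits that left out 1 library. DDX1, a helicase of the same complex, rose from 94.3 and 67.3 CPM to 208 and 192 CPM (1.31, SE 0.25, adjusted p = 0.000855), and its log2 fold change was 0.58 (adjusted p = 0.0182) under the A-content offset.

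For the eIF2α cycle and the factors that act with ATF4 and CHOP, 2 of 10 genes fell, 2 rose and 6 did not pass, with a median of −0.37. CEBPB, the partner C/EBPβ of both ATF4 and CHOP, fell from 165 and 206 CPM to 54.8 and 34.1 CPM (−2.06, SE 0.28, adjusted p = 7.98e-05). PPP1R15A, the stress-induced phosphatase subunit GADD34 that reverses eIF2α phosphorylation, rose from 62.3 and 67.0 CPM to 247 and 74.5 CPM (1.31, SE 0.40, adjusted p = 0.0161). The rise rested on shFOXK2 replicate 1, without which the log2 fold change was 0.18 (adjusted p = 0.707). DDIT3 was also higher in that library. TRIB3, an inhibitory partner of ATF4, fell by 0.94 on the log2 scale (adjusted p = 0.0371), though not without shFOXK2 replicate 2 (adjusted p = 0.308). The TRIB3 call was also lost with scaling by library size only (adjusted p = 0.0742) and under the offsets on GC and A content (adjusted p = 0.0925 and 0.106), and the log2 fold change was −1.63 without shFOXK2 replicate 1. ATF3 had a log2 fold change of −0.73 (adjusted p = 0.134), which was −1.39 (adjusted p = 0.00326) without shFOXK2 replicate 1.

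Another list held membrane-held relatives of ATF6 and other substrates of the site-1 and site-2 proteases. It also held SCAP of the SREBP axis, CREBRF and the subunits of NF-Y. Of its 12 genes, 8 fell, 1 rose and 3 did not pass, with a median of −0.86. CREB3L1, a relative of ATF6 released by the same proteases, went from 87.6 and 90.2 CPM to 3.52 and 6.48 CPM (−4.14, SE 0.33, adjusted p = 1.75e-06). SREBF1 and SREBF2, which encode the sterol regulators cleaved by these proteases, also fell, with log2 fold changes of −2.23 and −2.92. NFYB, a subunit of NF-Y, rose by 0.86 (adjusted p = 0.0208), a call lost under the A-content offset and with no filter, and reversed under the GC offset. It was also lost without shCtrl replicate 2 (adjusted p = 0.131) or shFOXK2 replicate 2 (adjusted p = 0.0752). CREBRF, which opposes CREB3, had a log2 fold change of 0.29 that changed sign without shCtrl replicate 2 or shFOXK2 replicate 2 and was 1.09 (adjusted p = 0.0356) without shCtrl replicate 1.

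Of 11 partners of BiP, 3 fell, 2 rose and 6 did not pass, with a median of −0.23. HYOU1, a nucleotide exchange factor of BiP, fell from 623 and 646 CPM to 184 and 169 CPM (−1.85, SE 0.23, adjusted p = 4.61e-05). SEC63, which recruits BiP to the translocon, rose from 59.7 and 30.3 CPM to 111 and 142 CPM (1.49, SE 0.31, adjusted p = 0.00164).

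Targets of the 3 arms were counted next. Of 10 genes held to be induced by XBP1, 6 fell and 0 rose, with a median of −1.12, and SEC24D, a coat protein of ER export, fell most (−2.48, SE 0.28, adjusted p = 1.92e-05). Of 12 held to be induced by ATF6, 6 fell, 0 rose and 6 did not pass, with a median of −1.07. Of the 12, 9 had a negative log2 fold change, and it was positive for HSP90B1 (0.46), SDF2L1 (0.34) and MANF (0.15). HERPUD1, part of ER-associated degradation, fell most in that list (−1.95, SE 0.25, adjusted p = 5.59e-05). HSPA5 and XBP1 are themselves in this list. Of 11 held to be induced by ATF4 or CHOP, 10 were tested, of which 6 fell and 1 rose, with a median of −0.998. CHAC1, which degrades glutathione, fell from 3.59 and 6.29 CPM to 0.773 and 0.549 CPM (−2.90, SE 0.46, adjusted p = 0.000240), and the gene that rose was PPP1R15A. ASNS had 2 to 6 counts in each library and was not tested. In GENCODE v44, 49.3% of its exon bases are shared with a long noncoding RNA gene on the same strand. Whether that overlap lowered its counts was not tested. In the lists of XBP1 and ATF6 targets the count of rises was also 0 at an unadjusted p under 0.05 and by DESeq2.

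Of 5 transcripts held to be cut by IRE1α itself, 2 fell (SPARC and PDGFRB) and 0 rose, with 0 rises also by DESeq2 and 1, COL6A1, at an unadjusted p under 0.05. SPARC went from 16.1 and 17.4 CPM to 0.352 and 1.32 CPM (−4.26, SE 0.46, adjusted p = 1.65e-05). PDGFRB is also among the fibroblast markers, of which COL1A2 and DCN had at most 3 counts and COL1A1 had 215 to 324 counts per library. BLOC1S1, the substrate most often used as a readout, had a log2 fold change of 0.65 and did not pass (SE 0.36, adjusted p = 0.154), and its shFOXK2 libraries lay on either side of 1 shCtrl library.

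**Figure D5:**
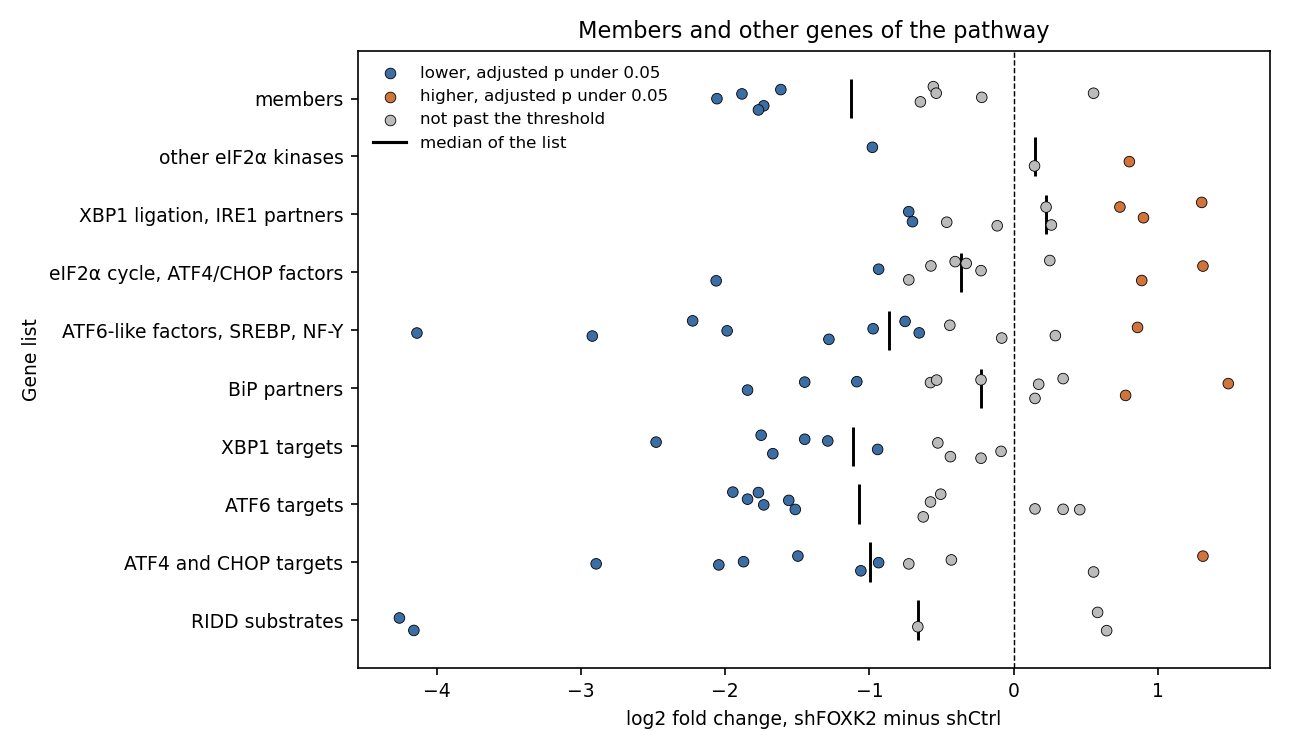
Log2 fold change of each tested gene in the members and the 9 other lists, shFOXK2 minus shCtrl, in blue where lower and orange where higher at an adjusted p under 0.05, grey otherwise, with the median of each list as a black line (vertical scatter has no meaning). The XBP1 and ATF6 target lists hold 0 called rises. The lists of ligation and IRE1α partners and of the other eIF2α kinases have medians above 0.

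The ER stress response element printed above for HSPA5 and XBP1 was also found in the windows of 23 other genes, 14 of which were tested. Of those 14, 8 fell (ALG12, CALR, CANX, ERO1B, FICD, PDIA6, SYNPO and TRIM5), 0 rose (0 also at an unadjusted p under 0.05 and by DESeq2) and 6 did not pass, with a median log2 fold change of −0.81. HSP90B1, the ER chaperone GRP94, was among the 6, at 0.46 (SE 0.35, adjusted p = 0.296). Over all tested genes, 22.7% were called lower and 25.7% higher. CALR, FICD, PDIA6, CRELD2 and HSP90B1 are also in the lists above, where their results were already counted. All genes with the element were taken, but the choice to look at them was made after their values were seen.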

How the data were processed

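Poly(A) RNA of 4 libraries was sequenced as single-end reads of 50 bases. The authors aligned reads to hg38 with STAR 2.5.2, per the submitters' processing notes and the study's methods, and counted them per gene symbol with HTSeq. Raw counts were deposited by the authors, 1 table per library, without normalization. The annotation and strand setting were not given in the sources used here. Reads that fit several places are usually dropped by HTSeq.

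Groups and replicate numbers came from sample titles. Genes were filtered with filterByExpr and scaled by TMM, CPM being taken over the counts of tested genes, and groups were compared with edgeR 4.0.16 (R 4.3.3) by its 2-sided quasi-likelihood test, and p-values were adjusted by Benjamini-Hochberg over the 16417 genes tested. The SE of a fold change is its size on the log2 scale over the root of the F statistic. P-values rest on variance shared between genes. Depth was 14284005 to 21950873 counts, and floors of 3 counts cover counting error only. The fits were tested on simulated data.

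Positions, lengths and composition came from GENCODE v44 (hg38, canonical transcripts), matched by current or older symbol for 65.1% of symbols and 87.6% of tested genes, and promoters from RefSeq. Genes without a value received no composition offset. Members, lists and tests were chosen with earlier results of these data known. Named genes were the members, FOXK2 and FOXK1, the largest called fall and rise of each list, 8 genes fixed by name, and the 3 nearest profiles of ERN1, HSPA5 and DDIT3. Any further gene was picked with its values known. Alternatives were the edgeR exact test, DESeq2 1.42.0 (Wald test), 3 other scalings, 2 other filters, the replicate number as a block, offsets on GC (with and without the block) or A content (lowess, span 0.2), glmTreat at a log2 fold change of 1, and leaving out each library. A block with crossed numbers was added after seeing the data.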

Additional observations from a re-analysis of the deposited data

How the results depend on the processing

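ERN1, XBP1, HSPA5, MBTPS1 and EIF2AK3 were called lower under all 13 alternatives and all 4 fits that left out 1 library, and the count of members called lower ran from 5 to 7. In fits without 1 library, the lone library of its group is assumed to vary like the others. The count called higher was 1 (DDIT3) under the GC offset and 1 under the GC offset with the replicate block, and 0 otherwise. With the replicate block alone it was 0, and the count lower was 5. Of the other named calls, that of RTCB was lost with the block (adjusted p = 0.0707) and with the GC offset added (adjusted p = 0.0682). The replicate numbers were not shown to pair the libraries, since same-numbered deviations correlated at −0.11. Over all genes 7270 were called with the block, against 7940 without it and 8350 with the numbers crossed. Pathway genes called lower fell to 18, and called higher to 0, under glmTreat, which asks for a larger change. Without 1 library they ran from 24 to 33 lower and from 5 to 11 higher, for which the cause was not tested. The 4 fits without 1 library gave a FOXK2 log2 fold change from −0.57 to −0.22. Over the 13 alternatives it ran from −0.46 to −0.03 and never passed the threshold. The FOXK2 difference was smallest under the offsets, at −0.06 for GC content, −0.07 for GC content with the block and −0.03 for A content.

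ATF4 reversed to 0.12 (GC offset), 0.11 (A-content offset) and 0.12 (GC offset with the block). EIF2AK2 reversed to −0.43, −0.46 and −0.41, and CREBRF to −0.60, −0.57 and −0.60, under the same settings in that order. NFYB reversed to −0.18 with the GC offset and −0.18 with the block added. Over the fits without 1 library, EIF2AK2 ran from −0.37 to 0.74 and CREBRF from −0.30 to 1.09. The cause was not tested. The fold changes of all tested genes shifted by a median of 0.12 under the GC offset, 0.17 under the A-content offset and −0.10 with no filter. For the members, 118 values under alternatives that left out no library kept their direction and call, 9 became calls and 3 reversed. ERN2 and ASNS had too few counts to pass the filter.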
